A study of Mus musculus with 4 samples.

Results

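Open chromatin was described around 6 genes of globin switching and their relatives, Bcl11a, Bcl11b, Myb, Zbtb7a, Sox6 and Hbb-bt, in hematopoietic stem cells (HSCs) of control and Cpt1a-KO mice. Peaks that overlapped a gene body or its flanks of 25 kb were taken from 4 ATAC-Seq peak lists and merged wherever they shared at least 1 bp. This gave 278 merged regions, of which 148 had a peak in 1 library and 130 had a peak in at least 2. These 130 regions, out of 137553 such regions on the autosomes and X, are the ones described. The genes and the comparison were chosen on the presence and rank of peaks in these same libraries, so presence and rank are given as a description with no test.

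In ATAC-Seq, a transposase inserts into open DNA, and places rich in its cuts are called as peaks. The cells were sorted from mouse bone marrow and cryopreserved after sorting, and the labels call them ltHSC, while the study's text calls the ATAC-Seq cells HSPCs. There were 2 control and 2 KO libraries. The labels give the genotype of the controls as WT, and the study describes them as Cpt1a fl/fl. The KO carried the same floxed alleles of Cpt1a, a mitochondrial enzyme of fatty acid oxidation, deleted by Vav1-Cre, which is active across the hematopoietic system and not in HSCs alone. All mice were on a C57BL/6, CD45.2 background, and the study used adults of both sexes. Nothing in the labels says whether the 2 libraries of a genotype came from separate animals or from pools. In these bulk samples, fewer cells with an open site and a less open site in each cell cannot be told apart.

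Globin switching is the replacement of embryonic and fetal globins by adult ones during development. BCL11A and ZBTB7A (also known as LRF) are zinc finger repressors of the fetal globin genes, SOX6 acts with BCL11A in erythroid cells, and MYB promotes the growth of erythroid progenitors and lies upstream of several of these factors. Hbb-bt encodes an adult beta-globin of the mouse, a product of erythroid cells, while Bcl11b is the paralog of Bcl11a that is best known for commitment to the T lineage. In HSCs and other progenitors, Bcl11a and Myb are known to be active, and the erythroid enhancers of Bcl11a in its second intron and of Myb in the stretch towards Hbs1l are known from erythroid cells.

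The lists held 240940 to 277594 summits per library, and the reads behind them are unknown, since the lists give none. The intervals covered 48.9 to 52.9 Mb in the control libraries and 42.6 to 44.4 Mb in the KO libraries, so the control lists covered more of the genome. Of the 137553 regions, the controls held 86.4% and 85.1% and the KO libraries 82.9% and 78.3%. All 10 of 10 HSC marker genes with an annotated start (Kit, Hlf, Mecom and others) had a peak within 1 kb of it in every library. Their median percentile was 79.6 to 89.7 by library, and Hoxa9 was at 90.2, 5.23, 13.7 and 88.1. Among 7 T cell markers, 3 to 5 had one, with none at Cd3d or Cd8a in any library. A peak at the start was found for 3 to 4 of 7 erythroid markers, 3 to 4 of 6 B cell markers and 6 to 7 of 9 myeloid markers. Where these starts had a peak, the median percentile was 95.9 to 98.0 for erythroid markers, above that of the HSC markers. It was 28.4 to 66.9 for B cell, 65.2 to 78.2 for myeloid and 41.4 to 61.9 for T cell markers. The share of all annotated starts with a peak was not computed, so the marker counts do not test the cell label. An exact permutation test of 2 libraries against 2 cannot give a two-sided p below 0.333.

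The promoter sequences show how differently the starts of these genes were covered by peaks. The 250 bases before the annotated start are given for Bcl11a, Zbtb7a, Myb and Hbb-bt from RefSeq (GRCm38.p6, the assembly of mm10), 5′ to 3′ on the strand of the gene, with capitals for matches on either strand to TGACCA, the motif of BCL11A, to AGATAA, the motif of GATA factors, to CACCC, the motif of Krüppel-like factors, to CCAAT, the motif of NF-Y, and to TATAAA, the TATA box.
Bcl11a, chr11:24080445-24080694, plus strand: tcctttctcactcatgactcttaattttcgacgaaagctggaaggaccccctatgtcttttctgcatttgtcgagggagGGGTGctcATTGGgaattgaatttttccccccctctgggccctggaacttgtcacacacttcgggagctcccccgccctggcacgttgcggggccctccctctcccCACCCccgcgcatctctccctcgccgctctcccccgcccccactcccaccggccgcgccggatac
Zbtb7a, chr10:81136021-81136270, plus strand: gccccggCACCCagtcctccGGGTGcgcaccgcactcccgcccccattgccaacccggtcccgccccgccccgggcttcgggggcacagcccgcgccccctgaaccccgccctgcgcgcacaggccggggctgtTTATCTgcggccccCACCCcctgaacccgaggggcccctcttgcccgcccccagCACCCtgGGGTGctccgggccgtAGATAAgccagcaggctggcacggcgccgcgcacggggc
Myb, chr10:21160985-21161234, minus strand: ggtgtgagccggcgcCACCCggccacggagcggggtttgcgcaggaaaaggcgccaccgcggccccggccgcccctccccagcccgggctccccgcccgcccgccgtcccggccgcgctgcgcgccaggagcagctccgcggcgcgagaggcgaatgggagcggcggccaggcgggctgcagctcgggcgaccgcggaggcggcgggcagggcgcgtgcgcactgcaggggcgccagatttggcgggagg
Hbb-bt, chr7:103813924-103814173, minus strand: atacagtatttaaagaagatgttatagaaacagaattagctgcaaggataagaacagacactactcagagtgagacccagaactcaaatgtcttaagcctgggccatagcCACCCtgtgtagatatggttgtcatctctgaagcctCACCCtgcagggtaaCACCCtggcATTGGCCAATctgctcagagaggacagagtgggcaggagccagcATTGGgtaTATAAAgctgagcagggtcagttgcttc

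The Hbb-bt promoter held 3 matches to CACCC, 3 to CCAAT and 1 to TATAAA, the last from 28 to 23 bases before the start. Its GC content was 47.2%, with 0 CpG. No peak of any library touched these 250 bases. The Myb promoter was of the opposite kind, with a GC content of 81.2%, 40 CpG and 1 match to CACCC. It lay inside a peak over all 250 bases in all 4 libraries. The median over 32619 promoters was a GC content of 52.4% and 6 CpG.

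The Zbtb7a promoter, with a GC content of 78.0%, held 2 matches to AGATAA and 5 to CACCC. Peaks covered 250 of its bases in control 1, 120 in control 2, 133 in KO 1 and 183 in KO 2. The Bcl11a promoter, with a GC content of 62.0%, held 2 matches to CACCC and 1 to CCAAT. Peaks covered 75, 73, 100 and 83 of its bases in the same order of libraries, so it was partly covered in every library, as that of Zbtb7a was in all but control 1. The 250 bases before the annotated start of Bcl11b, with a GC content of 44.8%, had 0 bases in a peak in each of the 4 libraries, like those of Hbb-bt. That start, at 108003414, lies inside the gene. A region held by all 4 libraries (chr12:108003900-108004305) overlapped the 5′ end of the gene at 108004145, so the promoter there was not free of peaks.

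TGACCA was not among the letters of these windows, and none of the matches overlapped another. Over all promoters of the same length, the share with a match on either strand was 11.4% for TGACCA, 10.0% for AGATAA, 52.1% for CACCC, 34.0% for CCAAT and 12.4% for TATAAA. The ETS core GGAAGT and the RUNX core TGTGGT were searched in the same way and matched none of the 4 windows, against 19.8% and 13.9% of all promoters.

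Around the 6 genes, regions with a peak in the controls alone outnumbered those with a peak in KO alone. A region was called control only when both controls and neither KO library had a peak there, and KO only for the reverse. Of the 130 regions, 65 (50.0%, against 58.4% of all regions) had a peak in all 4 libraries, 13 (10.0%, against 6.05%) were control only and 1 (0.769%, against 3.47%) was KO only. The remaining 51 had a peak in 2 or 3 libraries in another pattern. Control 1 held 113 of the 130 regions, control 2 held 108, KO 1 held 94 and KO 2 held 97.

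These counts changed with the length of the lists. When every list was shortened to the 240940 strongest summits, the length of the shortest, the 6 genes had 5 control only and 3 KO only regions, which made up 4.39% and 2.63% of their regions, against 4.75% and 3.90% over all regions. With the 100000 strongest summits of each library there were 2 and 3 of 42 regions, or 4.76% and 7.14%, against 2.76% and 3.11% over all regions. The 13 control only regions had a median width of 159 bp and a median fold of 2.60, where the fold is the authors' ratio of summit signal to background. The 65 regions of all 4 libraries had a median width of 492 bp and a median fold of 4.55. A −log10 q of at least 5 was reached by 3.85% of the values of control only regions and by 61.2% of those of regions in all 4 libraries.

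Strength was compared as the percentile of a peak's fold among all intervals of the same library, from 0 for the weakest to 100 for the strongest. At the 65 regions held by all 4 libraries, both KO percentiles lay below both controls in 10 (15.4%, against 15.1% of 80271 regions) and above both controls in 19 (29.2%, against 22.2%). In the other 36 regions the genotypes overlapped. Ranked by the authors' −log10 p, 12 regions were lower (18.5%, against 15.4%) and 14 higher (21.5%, against 22.0%). The lower share was thus close to that of the genome by either ranking, and the higher share was above it by fold and near it by −log10 p. Among summits whose −log10 q reached 5, the split turned to 5 lower and 3 higher of 25 regions, against 28.2% and 9.45% over the genome. Among the 100000 strongest summits of each library it was 2 lower and 12 higher of 25, against 14.2% and 25.3%. As a measure of spread, the median gap between the 2 controls was 6.07 percentile points and that between the 2 KO libraries 7.10. The median absolute difference between the genotype means was 5.46. Each gap is between single libraries and the difference is between means of 2 libraries, so their sizes are not directly comparable. The difference between genotypes was larger than both gaps in 16 of the 65 regions (24.6%, against 24.1%).

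**Figure D1:**
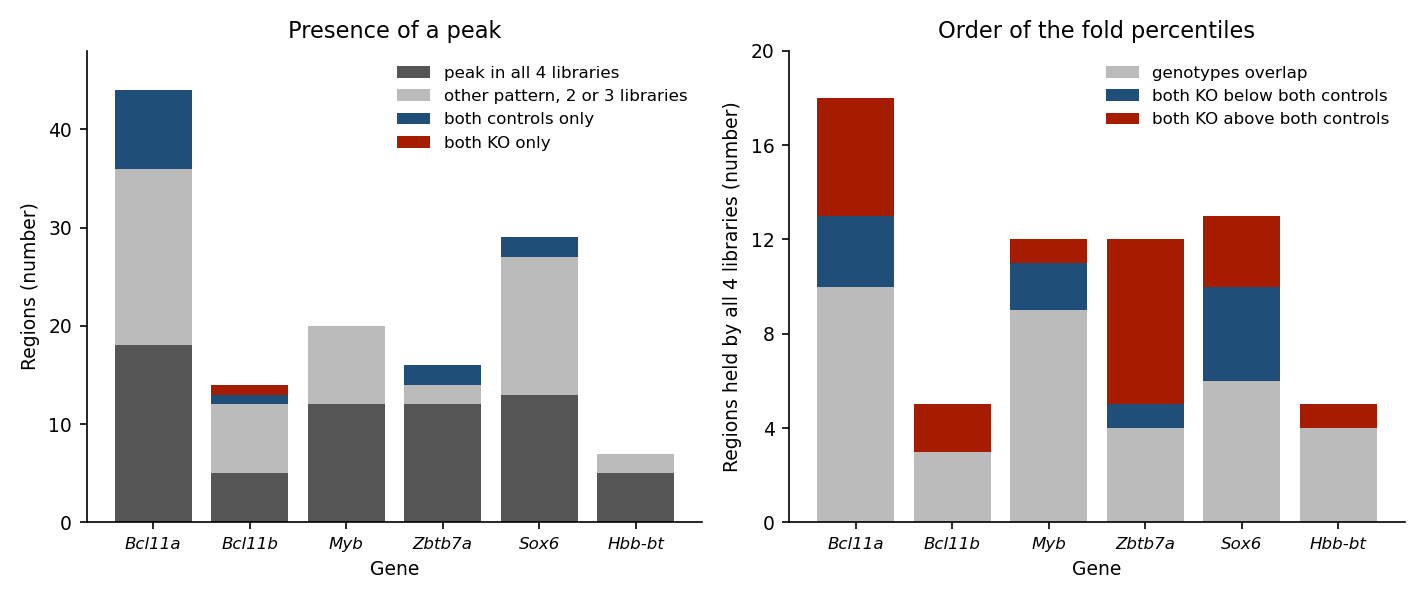
Number of regions by gene. Left, regions held by at least 2 libraries, coloured by which libraries had the peak; right, regions held by all 4 libraries, coloured by the order of the fold percentiles. Bcl11a had 8 control only regions of 44 and Myb and Hbb-bt had 0 of 20 and 0 of 7, while 7 of 12 Zbtb7a regions held by all 4 libraries had both KO libraries above both controls.

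Bcl11a (chr11:24076564-24173558, plus strand) had the most regions per 100 kb of the 6 genes and held 8 of the 13 control only regions. Its window held 44 regions, or 29.9 per 100 kb, against 5.36 per 100 kb over the genome. A peak was present in all 4 libraries in 18 of them, and none was KO only. Control 1 and control 2 each held 38 of the 44 regions, KO 1 held 28 and KO 2 held 27. The peaks covered 11630 and 11260 bp in the controls and 7796 and 7821 bp in the KO libraries. The 8 control only regions were 18.2% of the regions of the gene, against 6.05% over all regions.

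The strongest region of Bcl11a lay 105 kb past the annotated start, beyond the end of the gene (chr11:24184797-24185624). Its fold was 13.9 in control 1, 13.0 in control 2, 12.3 in KO 1 and 14.2 in KO 2, which placed it at percentiles 94.7, 93.1, 93.6 and 95.9. The 4 libraries were within a few percentile points of each other and the genotypes overlapped. Next came a region 4.38 kb upstream of the start at percentiles 85.5, 85.0, 88.8 and 88.5, and then one 15.2 kb upstream at 87.9, 78.5, 83.3 and 83.9. Both KO libraries were above both controls at the region 4.38 kb upstream, by 3.39 percentile points on average. That region overlapped the 5′ end of the gene at 24076564. By −log10 p it ranked above the region at 105 kb, at percentiles 95.6, 95.7, 96.3 and 96.1, against 92.5, 91.2, 92.0 and 94.3.

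At the annotated start of Bcl11a, a narrow peak of 117 bp covered part of the printed promoter. Its fold was 1.98 and 1.92 in the controls, against 1.79 and 1.82 in the KO libraries, among the lowest folds of every list. By −log10 p it ranked higher, at percentiles 48.9 and 35.2 in the controls, against 22.7 and 15.7 in the KO libraries, a mean difference of −22.9 points (KO minus control). A broader region of 903 bp began inside the gene, with its centre 0.61 kb past the start (chr11:24080854-24081756), at a fold of 3.74, 4.34, 5.52 and 4.02 and at percentiles 59.3, 61.7, 76.7 and 63.5. Both KO libraries were above both controls by the fold percentile alone. The fold itself was lower in KO 2 than in control 2, and by −log10 p the percentiles were 82.7, 84.4, 91.6 and 84.1, with overlapping genotypes. A further region, 0.791 kb upstream of the start, had a peak in control 2 and KO 2 alone.

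The erythroid enhancer of Bcl11a lies in its second intron. Exon positions were not used here, so regions are given by distance from the start instead. Between the start and 60.5 kb past it, there were 24 regions. A peak was present in all 4 libraries in 7 of them, 7 were control only, 0 were KO only and 10 had another pattern. The share in all 4 libraries and the share of control only regions were thus both 29.2%, against 58.4% and 6.05% of all regions. The control only regions had their centres at 6.61, 21.8, 38.7, 43.9, 47.0, 55.8 and 58.5 kb past the start, and the eighth of the gene lay at 97.9 kb, downstream of it. Of these 8, the one at 6.61 kb was the widest at 397 bp and had folds of 3.23 and 4.22. It was also the farthest from any KO peak, 3569 bp away, and the only one with a −log10 q above 5, at 5.07 in control 2.

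The other control only regions of Bcl11a each had a lower fold than that one in at least one of the same controls. At 21.8 kb the fold percentiles were 62.7 in control 1 and 4.14 in control 2, with a KO peak 98 bp away. At 58.5 kb they were 5.84 and 37.3, with a KO peak 99 bp away. That neighbour was a region of 603 bp 58.9 kb past the start (chr11:24139337-24139939), which had a peak in all 4 libraries at percentiles 71.3, 75.8, 79.8 and 66.4. So the stretch of the gene with several control only peaks also held a stronger peak that every library shared, and the genotypes overlapped there. In the 4 regions at 38.7, 43.9, 47.0 and 55.8 kb, the fold ran from 2.04 to 3.35. The region at 97.9 kb had folds of 4.22 and 2.87.

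Shorter or stricter lists held fewer of these regions. Bcl11a had 8 control only regions of 44 in the full lists and 3 of 38 in lists of equal length. It had 1 of 12 among summits whose −log10 q reached 5 and 0 of 10 among the 100000 strongest summits of each library. In the same order, the shares over all regions were 6.05%, 4.75%, 7.02% and 2.76%. KO only regions of Bcl11a numbered 0 in the full lists, in lists of equal length and at the stricter −log10 q, and 1 among the 100000 strongest. The shares of KO only regions over all regions were 3.47%, 3.90%, 0.81% and 3.11%.

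**Figure D2:**
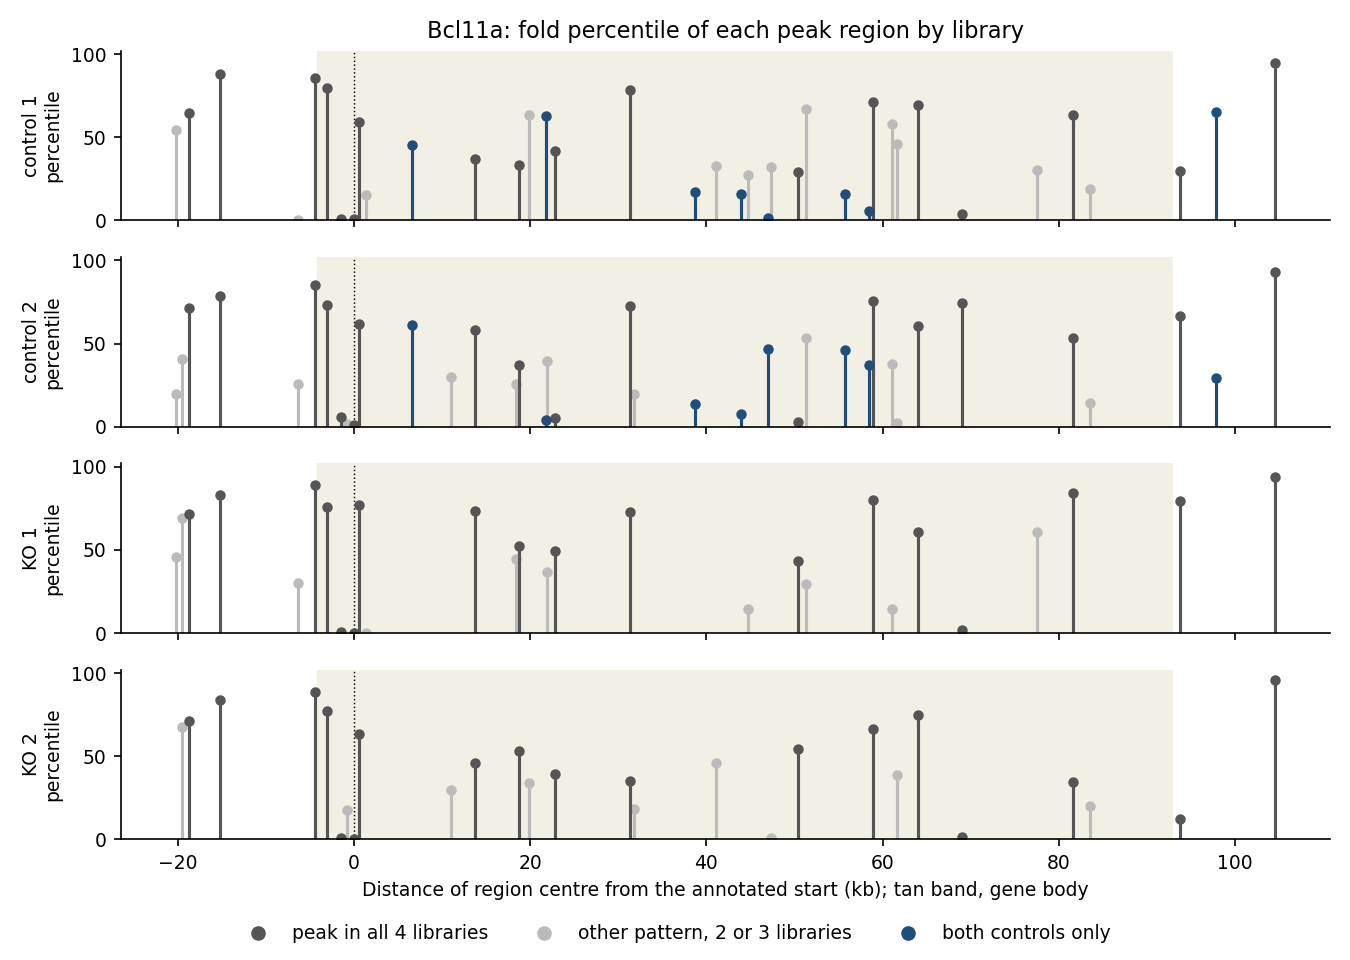
Regions in the Bcl11a window, 1 panel per library. The horizontal axis gives the distance of each region's centre from the annotated start in kb, the height of each stem the percentile of the authors' fold within the library from 0 to 100, and the tan band the gene body. Control only regions appear in the 2 control panels alone, most between 38.7 and 58.5 kb, while the tallest stems, at 105 kb and upstream of the start, stand in all 4 panels.

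Among the 18 Bcl11a regions of all 4 libraries, both KO libraries were below both controls in 3 (16.7%, against 15.1% over the genome). They were above both controls in 5 (27.8%, against 22.2%). By −log10 p, 4 were lower and 4 higher, against 15.4% and 22.0% over the genome. The median difference between genotypes (KO minus control) was 0.82 percentile points. KO ranked farthest above control at 50.4 kb (chr11:24130935-24131306), with percentiles of 29.2 and 2.85 in the controls, against 43.6 and 54.4 in the KO libraries. KO ranked farthest below control at 69.0 kb (chr11:24149453-24149899), with 3.82 and 74.5 in the controls, against 1.88 and 1.68 in the KO libraries. In the latter, control 2 alone stood high, and control 1 was nearly as low as the KO libraries. Other strong regions inside the gene were those at 31.3 kb, with percentiles of 78.6, 72.7, 72.6 and 35.2, and at 64.0 kb, with 69.7, 60.8, 60.8 and 74.7. At the former, both KO libraries were below both controls, but control 2 and KO 1 were nearly equal. At 18.7 kb, a narrow region had percentiles of 33.1 and 37.1 in the controls, against 52.4 and 53.4 in the KO libraries, with little spread within either genotype.

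The genes most like Bcl11a in the share of their regions held by each library were sought among the 1258 protein-coding genes with at least 22 regions. The shares of Bcl11a were 0.864, 0.864, 0.636 and 0.614. Fbn1, which encodes fibrillin 1 of the extracellular matrix, was closest, at a Euclidean distance of 0.0361 over the 4 shares. Wdfy4 was at 0.0579, against a median distance of 0.271. At least 8 control only regions were found at 11 of these genes, Bcl11a included, and 478 (38.0%) had 0 KO only regions. The gene with the median share had 5.88% control only regions, against the 18.2% of Bcl11a. Genes differ in their number of regions, and the likeness was measured on the same lists.

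Zbtb7a (chr10:81135225-81152222, plus strand), the second repressor, showed the most regions with higher ranks in KO. Of its 16 regions, 12 had a peak in all 4 libraries (75.0%, against 58.4% of all regions). Control only regions numbered 2 (12.5%, against 6.05%) and KO only regions 0 (against 3.47%). Both KO libraries were above both controls in 7 of the 12 regions (58.3%, against 22.2% over the genome) and below in 1. By −log10 p, the counts were 3 higher and 2 lower, against 22.0% and 15.4% over the genome. The 7 regions lay from 6.88 kb upstream of the start to 40.3 kb past it. Those at 26.1, 33.0, 37.0 and 40.3 kb lay past the end of the gene, and 2 of them overlapped the neighbouring genes Pias4 and Eef2. They cannot be assigned to Zbtb7a alone. With flanks of 5 kb, 2 of the 4 regions held by all 4 libraries were higher in KO and 1 was lower.

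The region at the start of Zbtb7a (chr10:81135966-81136642) had a low fold of 2.73, 2.77, 2.92 and 3.53 with percentiles of 29.5 and 27.0 in the controls, against 32.7 and 53.4 in the KO libraries. Of the regions of the gene, KO ranked farthest above control here, by 14.8 percentile points on average, and KO 2 stood apart from the other 3 libraries by that measure. By −log10 p the same region ranked well up every list, at percentiles 77.7, 75.1, 80.7 and 84.5, with both KO libraries above both controls and KO 2 close to KO 1. The higher KO folds came from peaks of this merged region that did not overlap the printed promoter. The strongest peak over those 250 bases had a fold of 2.73 and 2.77 in the controls, against 2.58 and 1.71 in the KO libraries. A stronger region of 1227 bp lay 1.61 kb past the start (chr10:81137270-81138496), at percentiles 92.2, 88.8, 92.4 and 93.0. There the KO libraries exceeded the controls by 2.25 points on average, and control 1 and KO 1 nearly coincided. By −log10 p the genotypes overlapped there. A narrow region between them, 0.738 kb past the start, was at percentiles 0.495, 1.46, 0.303 and 20.3.

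The other 2 of the 3 strongest regions lay downstream, at Pias4, which encodes a SUMO ligase, and at the start of Eef2, the elongation factor of translation. Their percentiles were 96.3, 97.1, 96.4 and 95.1 at Pias4 and 90.8, 89.5, 92.7 and 92.3 at Eef2. Around Zbtb7a, KO ranked farthest below control 1.84 kb upstream of the start (chr10:81134318-81134535), where the controls were at 58.8 and 48.3 and the KO libraries at 14.9 and 37.1. The 2 control only regions lay 17.2 kb upstream, inside Map2k2, and 15.3 kb past the start. Both were weak, with folds from 2.11 to 3.70 and a −log10 q of at most 4.82.

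**Figure D3:**
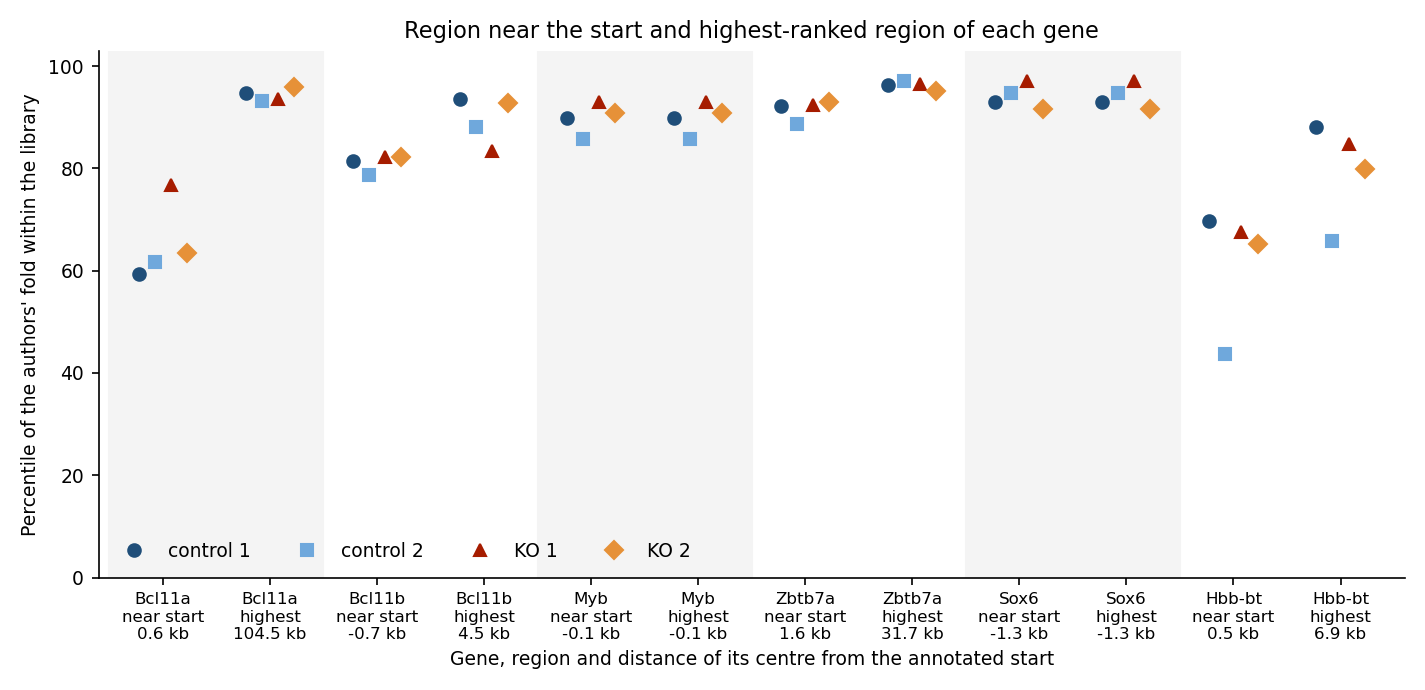
Percentile of the authors' fold within each library (vertical axis, 0 to 100) for the stronger region near the annotated start and the highest-ranked region of each gene, with 1 point per library and the distance of the region's centre from the start under each name. The region near the start was high for Sox6 (91.7 to 97.1), Zbtb7a (88.8 to 93.0) and Myb (85.8 to 92.9) and lowest on average for Hbb-bt (43.7 to 69.7); for Sox6 and Myb it is also the highest-ranked region, so it appears in both columns.

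Sox6 (chr7:115470872-116040776, minus strand), the longest of the genes, had 29 regions, or 4.68 per 100 kb. Control only regions numbered 2 (6.90%, against 6.05% of all regions) and KO only regions 0 (against 3.47%). A peak was present in all 4 libraries in 13 regions (44.8%, against 58.4%). Both KO libraries were below both controls in 4 of the 13 (30.8%, against 15.1% over the genome) and above in 3 (23.1%, against 22.2%). By −log10 p, 3 were lower and 3 higher, against 15.4% and 22.0% over the genome. The strongest region, of 1511 bp, lay 1.32 kb upstream of the most upstream of its 6 annotated starts (chr7:116039306-116040816). It overlapped the 5′ end of the gene at 116040776. Its fold was 12.5, 14.5, 16.6 and 10.5, and its percentiles were 93.0, 94.8, 97.1 and 91.7. KO 1 was above both controls and KO 2 below both.

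Inside Sox6, 488 kb past the start (chr7:115550157-115550908), was the strongest of the regions around the 6 genes with lower ranks in KO. The fold was 11.7 and 12.2 in the controls, against 7.82 and 6.52 in the KO libraries, and the percentiles were 92.0, 92.0, 85.6 and 81.7. The gap between the genotype means, of −8.35 percentile points (KO minus control), was larger than the gap within either genotype. A region 499 kb past the start was at 83.5, 82.8, 82.3 and 89.0, and there the genotypes overlapped. The other 3 regions with lower ranks in KO lay 507, 96.7 and 4.94 kb past the start, and the 3 with higher ranks lay 482, 423 and 5.55 kb past it. At 423 kb (chr7:115615658-115616248), the one of these with the largest difference, the percentiles were 74.6 and 81.6 in the controls, against 89.4 and 87.9 in the KO libraries. At 4.94 kb they were 53.5 and 58.5 in the controls, against 52.9 and 52.8 in the KO libraries. By −log10 p the genotypes overlapped at 4.94 kb.

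The mean of KO was farthest below that of control at 6.64 kb, near another annotated start, with percentiles of 63.5, 77.1, 69.6 and 41.0, where KO 1 lay between the controls. It was farthest above control at 575 kb, past the end of the gene, with 61.5, 33.8, 58.1 and 65.2. Neither separated the genotypes. The 2 control only regions, 539 kb and 4.30 kb past the start, had folds from 1.89 to 3.56.

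Myb (chr10:21124930-21160984, minus strand) had 20 regions, 12 of them held by all 4 libraries (60.0%, against 58.4% of all regions). It had 0 control only and 0 KO only regions, against 6.05% and 3.47%. Its promoter region of 1276 bp (chr10:21160493-21161768), which spans the sequence given above, had a fold of 10.3, 9.10, 11.7 and 9.93 and percentiles of 89.8, 85.8, 92.9 and 90.9. Both KO libraries were above both controls, with a mean difference of 4.10 percentile points and a gap between the controls of about the same size. Inside the gene, KO ranked farthest below control at 14.5 kb (chr10:21146230-21146675), at 76.0 and 64.9 in the controls, against 53.7 and 22.7 in the KO libraries. A region at 9.46 kb, the third strongest of the gene, was at 60.0, 72.9, 68.8 and 76.8. At 32.7 kb, where the mean of KO was farthest above that of control, the percentiles were 54.8, 19.4, 55.6 and 37.4. The genotypes overlapped at both. The median difference over the 12 regions was −5.43 percentile points, against 0.446 over the genome, and the median gap between the 2 KO libraries at these regions was 20.3 points.

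Just inside the limit of the flank, a region 18.0 kb upstream of Myb was at percentiles 79.2, 77.6, 83.7 and 69.8. The next one, just outside the limit at 26.0 kb, was at 88.9, 85.7, 88.2 and 79.5. In both, KO 2 was the lowest library and KO 1 was not below both controls. The stretch from the Myb start to the Hbs1l start, 135 kb long, holds the enhancers of Myb known from erythroid cells. It had 20 regions, both promoters included, of which 13 were held by all 4 libraries (65.0%, against 58.4% of all regions). There, 0 were control only (against 6.05%) and 1, at 58.4 kb, was KO only (5.0%, against 3.47%).

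Among the 13 regions between Myb and Hbs1l, 4 were lower in both KO libraries (30.8%, against 15.1% over the genome) and 4 were higher (30.8%, against 22.2%). By −log10 p, 4 were lower and 3 higher, against 15.4% and 22.0% over the genome. The 4 higher ones were the Myb promoter and the regions 28.1, 35.9 and 43.9 kb upstream, and the 4 lower ones were those 31.7, 39.9, 67.8 and 91.2 kb upstream. The region at 91.2 kb (chr10:21251719-21252695) was the strongest between the promoters, with a fold of 17.2 and 15.5 in the controls, against 12.9 and 11.6 in the KO libraries. Its percentiles were 97.2, 95.8, 94.2 and 93.3. At 67.8 kb the percentiles were 87.9, 76.4, 74.2 and 73.1, so control 1 stood apart from the other libraries. At 28.1 kb they were 83.6, 79.7, 91.4 and 86.8, higher in KO. The Hbs1l promoter was at 98.7, 96.6, 98.2 and 95.7, with overlapping genotypes.

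**Figure D4:**
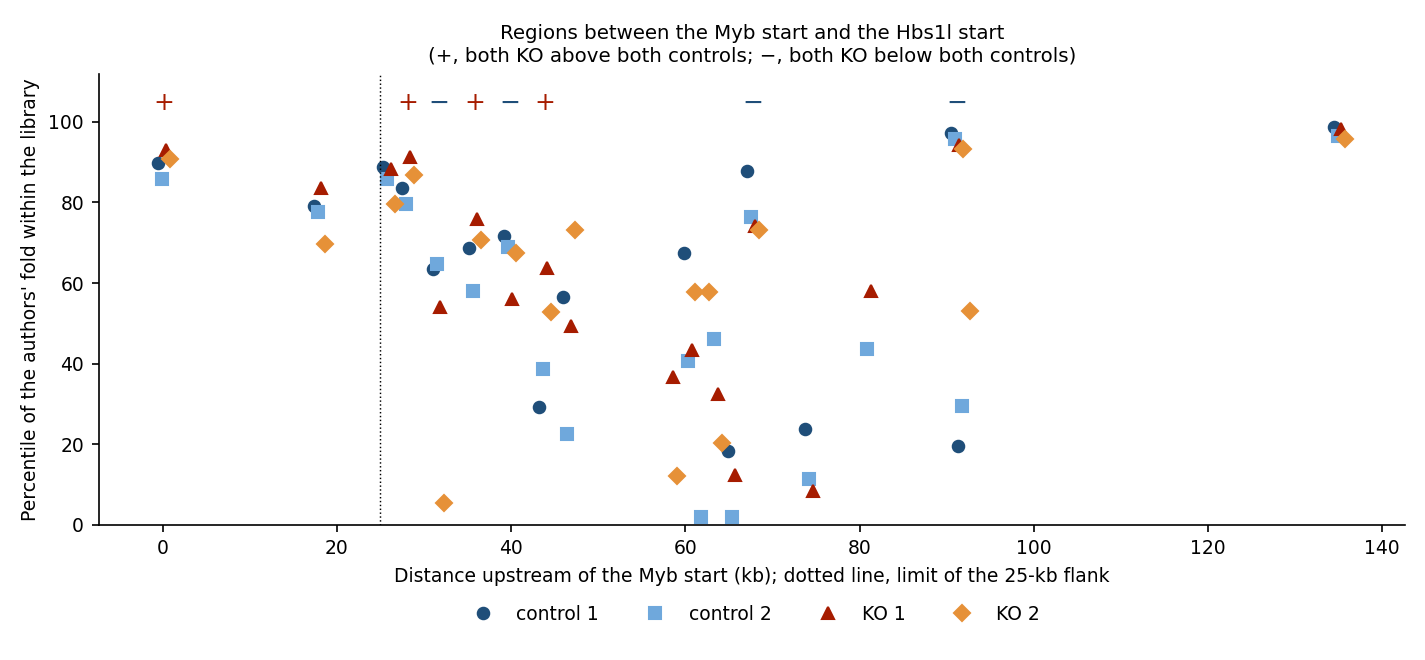
Percentile of the authors' fold within each library (vertical axis, 0 to 100) against the distance upstream of the Myb start in kb, with 1 point per library and region. Plus and minus signs mark the 4 regions higher and the 4 lower in both KO libraries, and the dotted line the limit of the 25-kb flank; the region at 91.2 kb, lower in KO, was between 93.3 and 97.2 in all libraries.

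Hbb-bt (chr7:103812524-103813923, minus strand), the adult globin gene, had 7 regions, 5 of them held by all 4 libraries (71.4%, against 58.4% of all regions). It had 0 control only and 0 KO only regions, against 6.05% and 3.47%. The peak nearest the start lay inside the gene (chr7:103813136-103813807) and not on the promoter. Its fold was 4.79, 3.26, 4.24 and 4.07 and its percentiles were 69.7, 43.7, 67.6 and 65.2, so control 2 was lowest and the other 3 libraries were close. The strongest region lay 6.85 kb past the start, downstream of the gene, at 88.0, 65.7, 84.7 and 80.0, again with control 2 lowest. Regions at 1.60 kb and 20.8 kb had percentiles of 70.1, 74.3, 70.7 and 65.2, and of 61.5, 75.3, 49.3 and 73.1. By the fold percentile, the genotypes separated in none of these 4. By −log10 p, both KO libraries were below both controls at 1.60 kb. The −log10 p percentiles there were 67.8 and 70.2 in the controls, against 66.4 and 61.8 in the KO libraries.

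The one region of the Hbb-bt window where both KO libraries were higher lay 13.4 kb upstream, at the neighbouring gene Hbb-bs, with percentiles of 61.5, 55.9, 70.7 and 65.2. Hbb-bs and Hbb-bt are near-identical copies, and reads can be split between them, so values at either are uncertain. Around the 5 beta-globin genes of the locus there were 10 regions. A peak was present in all 4 libraries in 8 of them, against 58.4% of all regions. None was control only or KO only, against 6.05% and 3.47%. Of the 8, 1 was lower in both KO libraries and 2 were higher, against 15.1% and 22.2% over the genome. By −log10 p, 2 were lower and 2 higher, against 15.4% and 22.0% over the genome.

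Bcl11b (chr12:107910403-108004145, minus strand), the paralog tied to T lineage commitment, had 14 regions, or 9.74 per 100 kb. Of these, 5 were held by all 4 libraries (35.7%, against 58.4% of all regions), 1 was control only and 1 KO only. Control only and KO only regions each made up 7.14%, against 6.05% and 3.47%. The strongest region of Bcl11b was 4.46 kb past the start (chr12:107998815-107999100), with a fold of 12.9, 10.1, 7.14 and 11.2 and percentiles of 93.5, 88.1, 83.5 and 92.8. KO 1 was lowest and KO 2 lay between the controls. The region nearest the start had its centre 0.689 kb upstream (chr12:108003900-108004305) and overlapped the 5′ end of the gene. It was at 81.4, 78.8, 82.2 and 82.2, a KO mean 2.12 percentile points above that of control. A region 2.85 kb upstream was at 75.7, 58.7, 60.7 and 70.9.

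At Bcl11b, KO ranked farthest above control 26.7 kb past the start (chr12:107976610-107976821), with percentiles of 27.8 and 36.5 in the controls, against 60.5 and 68.1 in the KO libraries. The difference of 32.2 points was larger than the gap within either genotype. Nearby, at 25.3 kb, was the 1 KO only region of the 6 genes, with folds of 2.12 and 2.96 and a control peak 104 bp away. The control only region, at 30.6 kb, had folds of 2.60 and 3.58 and a KO peak 172 bp away. Around 10 other genes of T lineage commitment, such as Tcf7 and Gata3, 13 of 167 regions were control only (7.78%, against 6.05% of all regions) and 2 were KO only (1.20%, against 3.47%). Of 96 regions in all 4 libraries, 14 were lower in both KO libraries (14.6%, against 15.1%) and 21 higher (21.9%, against 22.2%).

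**Figure D5:**
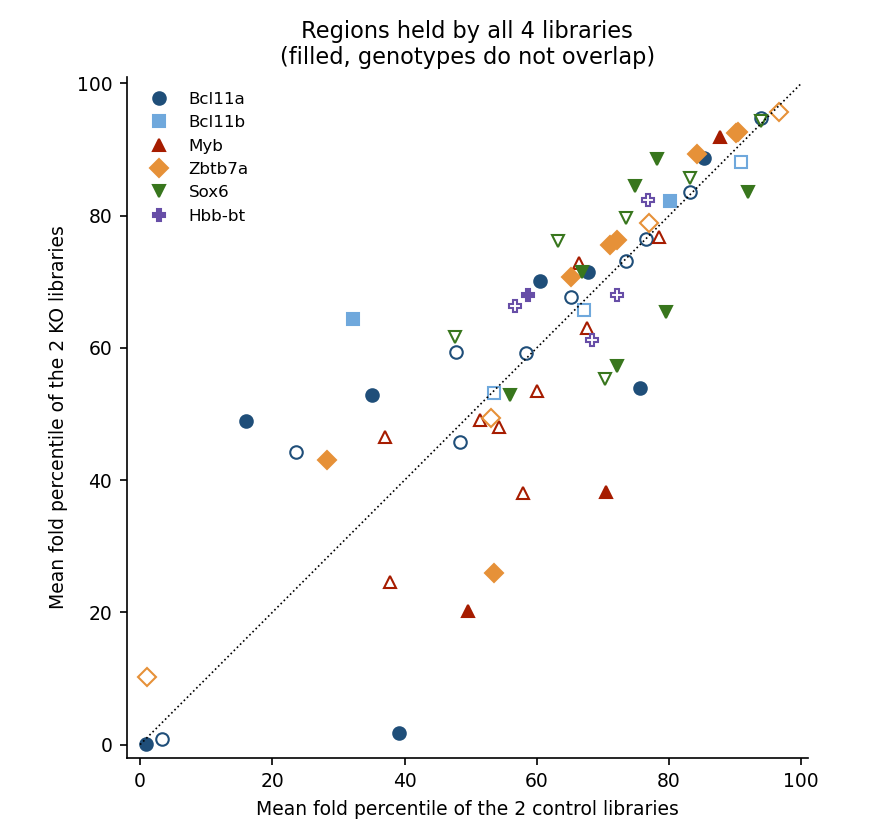
Mean fold percentile of the 2 control libraries (horizontal axis) against that of the 2 KO libraries (vertical axis) for the 65 regions held by all 4 libraries, coloured by gene. Filled symbols mark the 29 regions in which the genotypes did not overlap and the dotted line equal percentiles; the points farthest from the line are the Bcl11a regions at 69.0 and 50.4 kb, the Myb region at 14.5 kb and the Bcl11b region at 26.7 kb.

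The other regulators of globin switching and the cofactors of BCL11A were taken as a list of 34 genes, among them Klf1, an erythroid activator, Nfia and Nfix, nuclear factor I proteins, and subunits of the NuRD repressor complex such as Chd4 and Mbd2. Around them lay 560 regions, of which 338 had a peak in all 4 libraries (60.4%, against 58.4% of all regions), 43 were control only (7.68%, against 6.05%) and 14 were KO only (2.50%, against 3.47%). Of the 338, 44 were lower in both KO libraries (13.0%, against 15.1%) and 86 higher (25.4%, against 22.2%). These shares were close to those of the genome. The genes with the most regions in one genotype alone were Nfia, with 7 control only and 2 KO only of 62, Nfix, with 4 and 2 of 40, and Zfpm1, which encodes the GATA1 partner FOG1, with 3 and 1 of 36. Klf1 had 11 regions, none in one genotype alone. Of its 9 regions in all 4 libraries, 3 were lower in KO (33.3%, against 15.1%) and 1 higher (11.1%, against 22.2%). By −log10 p, 2 were lower and 1 higher.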

How the data were processed

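ATAC-Seq peaks of 2 control and 2 KO libraries of mouse bone marrow HSCs were analyzed. Peaks were called by the authors library by library, with 1 row per summit. The deposited lists give a fold (the ratio of summit signal to background, per the authors), a −log10 p and a −log10 q. The submitters' processing notes name Bowtie2, MACS2 and mm10; versions are not given in the sources used here. The authors' DiffBind and edgeR tests need reads, which were not used here, so depth and the precision it gives are unknown. The score column was not used, although it was deposited.

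Intervals on the autosomes and X were merged (at least 1 bp) in Python 3.11.15 (pandas 2.3.3, numpy 2.4.6), and figures were drawn with matplotlib 3.10.9. The −log10 p of the summits was never under 2.0. A region took each library's strongest fold, ranked among that library's intervals. Genes and starts came from RefSeq (GRCm38.p6), without exons. The members and lists were chosen with earlier results of these data known. Regions named were those at the start, the 3 of highest mean percentile, the extremes of the genotype difference and all those of one genotype, plus the inner part of Bcl11a and the stretch from Myb to Hbs1l. Regions named beyond this rule were chosen after their values were seen. One of the genes most like Bcl11a is not reported here. Merging, presence and order calls were tested on simulated lists. Alternatives were stricter or shorter lists, a covered share of at least 0.5, flanks of 5 and 50 kb, other rankings and leaving out each library.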

Additional observations from a re-analysis of the deposited data

How the results depend on the processing

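With no read counts, depth limits the calls to an unknown degree, and many of the regions are weak peaks near the limit of calling. Of 73 recomputed counts, 35 stayed within 1.5 times the value given above and 38 did not, and the cause was not tested beyond what each setting removes. With summits of a −log10 q of 5 or more alone, there were 47 regions, 25 of them in all 4 libraries, 6 control only (1 of Bcl11a) and 0 KO only, with 5 lower and 3 higher in both KO libraries, so that the higher regions no longer outnumbered the lower ones. Over the genome that setting turned the same way, with 28.2% lower and 9.45% higher. Control only regions made up 12.8% of the 47, against 7.02% over the genome, where 0.81% were KO only. The 100000 strongest summits of each library gave 42 regions, 25 in all 4 libraries, 2 control only (0 of Bcl11a) and 3 KO only, with 2 lower and 12 higher. The control only and KO only shares there were 4.76% and 7.14%, against 2.76% and 3.11% over the genome. In lists of equal length, 5 regions were control only (3 of Bcl11a), 3 KO only and 6 lower (9.84%, against 10.2% over the genome). Under a covered share of at least 0.5, 36 regions were in all 4 libraries. A flank of 5 kb left 12 higher regions (26.1%, against 22.2% over the genome). A flank of 50 kb gave 3 KO only regions (1.82%, against 3.47%), and counting regions of 1 library gave 278 in all. Leaving out 1 library at a time gave 99 to 117 regions, 69 to 74 in all remaining libraries, 19 to 55 control only (10 to 23 of Bcl11a), 4 to 41 KO only, 17 to 22 lower and 23 to 36 higher. The highest control only counts came without control replicate 2 and the highest KO only counts without KO replicate 2, since 1 library then stands for its genotype. These counts then include regions of a single library. Relative to the regions held by at least 2 remaining libraries, the 55 control only came to 50.0%, against 52.7% over the genome. The 41 KO only came to 36.3%, against 48.9%. Lower regions were 23.9% to 31.0% of the regions held by all remaining libraries, against 24.3% to 35.5% over the genome. Higher regions were 33.3% to 50.7%, against 32.7% to 42.9%. The 36 higher ones, without control replicate 1, came to 50.7%, against 42.0%. No paired analysis was possible because the counts come from no test and the shared replicate numbers are not stated to mark shared animals or batches.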
